A study of Sus scrofa with 72 samples.

Results

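The comparison concerns cells grown from the infrapatellar fat pad against cells grown from fibrous synovium of the pig knee, after these cells had been driven into fat cell differentiation for 7 or 14 days. Of the 72 arrays of the series, 15 belonged to it by their titles, 7 of fat pad cells (FP) and 8 of fibrous synovium cells (FS), all in adipogenic induction medium (AIM) on day 7 (D7) or day 14 (D14). One further array, titled AS FP in AIM on D7, replicate 2, was left out because its label disagrees with the values in the tables that accompany the study. The FP arrays comprised 1 Angeln Saddleback (AS) array on D7 and 2 on D14, and 2 German Landrace (DL) arrays on each day. The FS arrays comprised 2 of each breed on each day. The rest of the series covers the same cells in complete culture medium (CCM) on days 0 to 14 and in AIM on days 1 and 4. Each breed and tissue was a single pool of passage 3 cells from 3 male pigs aged 59 days, grown as 2 independent cultures. By the methods of the study, both tissues were taken from the same 3 pigs of a breed. AIM was a commercial adipogenesis kit and CCM a high-glucose DMEM with serum. With 4 pools in all, the p-values below carry the variation among cultures but none among animals, and tissue and pool cannot be told apart within a breed. The RNA came from whole cultures, so fewer cells of a kind and less RNA per cell cannot be told apart either.

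Mesenchymal stem cells of the synovium are fibroblast-like cells that can form fat, cartilage or bone cells in culture. Fat cell differentiation is driven by the nuclear receptor PPARG and by CEBPA, which switch on the proteins of lipid storage and of hormone secretion. The infrapatellar fat pad is a deposit of white fat behind the patellar ligament, covered by synovium, and lies next to the fibrous capsule of the same joint. Connective tissue cells from different sites of the body often keep the activity of patterning factors such as HOX genes in culture.

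The values are log2 intensities of the porcine Snowball array, summarized per probe set, so a difference of 1 is a 2-fold difference of signal. A probe set was tested when it varied over the series (SD above 0.25) and lay above the median of the array on at least 8 arrays, which left 18335 probe sets. All 15 arrays carried the fat cell programme that their label names: adiponectin (ADIPOQ) lay between 12.95 and 13.34 and the fatty acid carrier FABP4 between 12.0 and 12.88. On the array left out, ADIPOQ was 5.91 and FABP4 was 5.09. The array medians ranged from 3.98 to 4.12 and the background controls from 3.23 to 3.67. Of the sum of squares of the tested probe sets over the 15 arrays, tissue took 8.32%, breed 19.98% and day 12.34%.

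Late adipogenic cultures of FP and FS differed in few transcripts. With breed and day as terms, 31 of 18335 probe sets (0.169%) passed an adjusted p under 0.01 in limma, 15 with higher abundance in FP (0.0818%) and 16 with higher abundance in FS (0.0873%). At an unadjusted p under 0.05 there were 1908 (10.4%). The 31 named 24 genes, 12 in each direction, and 4 passing probe sets carried no gene name. The median size of the difference was 0.115 over all tested probe sets, against 0.6 to 2.15 among those that passed. In 17 of the 31 the FP and FS arrays did not overlap, as was the case in 41 of all tested probe sets (0.224%). The count fell to 20 without the culture line AS FS replicate 1, to 13 without DL FP replicate 1, to 11 without DL FP replicate 2, to 14 without DL FS replicate 1 and to 12 without DL FS replicate 2. It was 8 with the left-out array included under its label, and 3 with D7 and D14 averaged per culture line, where 22 of the 24 genes did not pass. With the replicate number paired between FP and FS within each breed and day, a setting added after the data had been seen, it was 19, and 11 of the 24 genes did not pass. It was 178 (0.971%) in a fit of all 36 group means of the series, which held 29 of the 31. COL11A1 and CA3 did not pass there (adjusted p = 0.014 and 0.017, limma). Of the 24 genes, 8 passed whichever of the 8 culture lines was left out, and SCARB1, PTGDS, ANGPTL1, ZNF385D and CA3 passed in 1 of these fits, with C4A, GNA14, SMOC1, CRYAB and MYO1D in 2, CEMIP in 3 and ALDH1A3 in 6.

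**Figure D1:**
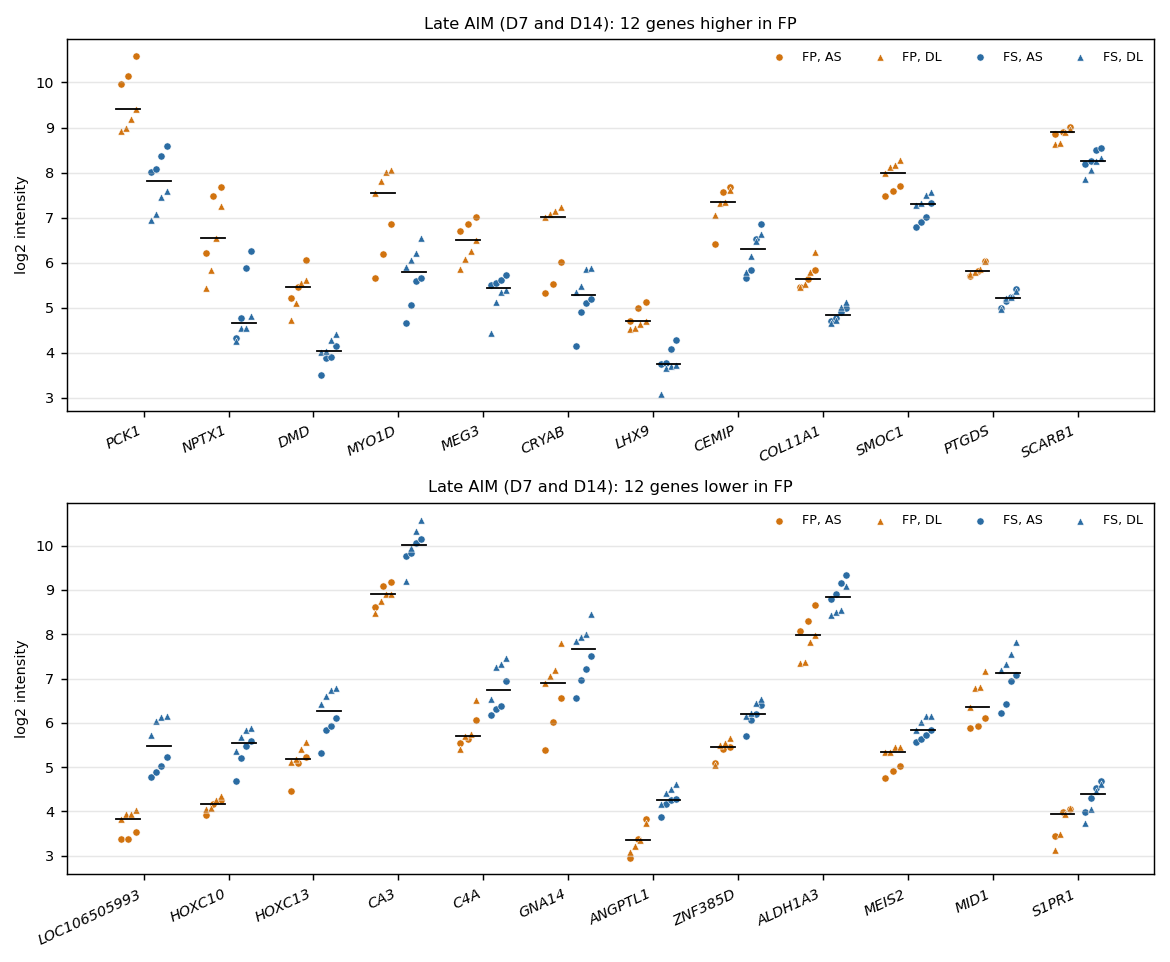
Log2 intensity of the 24 leading genes on each of the 15 late AIM arrays. Orange points are FP and blue points FS, circles are AS and triangles DL, and the black bars are medians. The PCK1 values of FP, 8.93 to 10.58, lie above those of FS, 6.94 to 8.60, and the LOC106505993 values of FP, 3.38 to 4.03, lie below those of FS, 4.77 to 6.15.

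Among enzymes and carriers of metabolism, the largest difference was that of PCK1, the cytosolic phosphoenolpyruvate carboxykinase, which in fat cells makes the glycerol backbone of triacylglycerol from small precursors. PCK1 ranged from 8.93 to 10.58 (median 9.41) in FP and from 6.94 to 8.60 (median 7.80) in FS. Every FP array thus lay above every FS array, and within each tissue the AS arrays were the highest. The difference was 1.91 (standard error 0.14, adjusted p = 8.7e-06, limma), or 3.75-fold, and a further probe set gave 2.15 (standard error 0.19, adjusted p = 4.2e-05). Both probe sets passed whichever of the 8 culture lines was left out. SCARB1, the receptor that takes up cholesterol esters from high density lipoprotein, was also higher in FP. It ranged from 8.64 to 9.01 (median 8.90) in FP and from 7.86 to 8.54 (median 8.26) in FS, without overlap. Its difference of 0.63 (standard error 0.09, adjusted p = 0.0049) was matched in sign by the other tested probe sets, at 0.54 and 0.57, which did not pass. PTGDS, which makes prostaglandin D2, was higher by 0.64 (standard error 0.09, adjusted p = 0.0043), with 5.70 to 6.05 in FP and 4.98 to 5.42 in FS. A brighter probe set of PTGDS gave 0.51 (adjusted p = 0.15).

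Metabolic enzymes with strong signals were found on the side of FS as well. CA3, a carbonic anhydrase abundant in fat and muscle, ranged from 8.48 to 9.18 (median 8.91) in FP and from 9.20 to 10.58 (median 10.00) in FS. The highest FP array and the lowest FS array lay next to each other, and no array crossed over. The difference was -1.13 (standard error 0.18, adjusted p = 0.0091, limma), and it passed in 1 of the 8 fits that left out a culture line. ALDH1A3, which forms retinoic acid from retinaldehyde, ranged from 7.35 to 8.66 (median 7.98) in FP and from 8.44 to 9.33 (median 8.85) in FS, with some overlap. Its difference was -0.84 (standard error 0.11, adjusted p = 0.0014), and a dimmer probe set gave -1.02 (adjusted p = 0.016).

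Of the patterning factors, HOXC10 and HOXC13, homeobox genes of the hind part of the body axis and the limb, were lower in FP. HOXC10 ranged from 3.93 to 4.36 (median 4.18) in FP and from 4.68 to 5.89 (median 5.54) in FS, without overlap. The difference was -1.34 (standard error 0.14, adjusted p = 0.0002, limma), and the FP mean was only 0.75 above the background controls, against 2.06 in FS. HOXC13 ranged from 4.46 to 5.57 (median 5.19) in FP and from 5.33 to 6.78 (median 6.27) in FS, and differed by -1.14 (standard error 0.13, adjusted p = 0.0004). The other HOXC13 probe set gave -0.53 (adjusted p = 0.1). LHX9, a LIM homeobox factor of the developing limb and gonad, was higher in FP. It ranged from 4.54 to 5.12 (median 4.70) in FP and from 3.09 to 4.29 (median 3.75) in FS, a difference of 1.03 (standard error 0.12, adjusted p = 0.00069), while its brighter probe set gave 0.40 (adjusted p = 0.25). On the passing LHX9 probe set the FS mean was only 0.36 above the background controls, against 1.34 in FP. MEIS2, a homeobox partner of HOX proteins, gave contrary values. Its difference was -0.71 on 1 probe set (standard error 0.09, adjusted p = 0.0014), with 4.75 to 5.46 in FP and 5.57 to 6.16 in FS, but a brighter probe set gave 0.17 (adjusted p = 0.8). HOXC10, HOXC13 and LHX9 passed in all 8 fits without a culture line and MEIS2 in 4.

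Of 24 tested HOX probe sets of 19 genes, 2 passed, beside 0.169% of all tested probe sets, and 19 differed by less than 0.5 in either direction. HOXA9, with means of 7.73 in FP and 7.82 in FS, differed by -0.06, and HOXA10, with 7.60 and 7.57, by 0.08. HOXD11 fell just short on 1 of its 3 probe sets, at -1.88 (standard error 0.31, adjusted p = 0.011, limma), with 2.69 to 5.11 in FP and 5.31 to 6.41 in FS. That probe set, whose lowest FP array lay below the background controls of 3.23 to 3.67, differed by -2.95 in AS and by -0.97 in DL. The other HOXD11 probe sets gave -0.45 and -0.04. The probe set just short of passing did pass in the fit of 36 group means, at -1.97 (adjusted p = 4.2e-07, limma). Of the wider list of HOX and limb patterning factors, 57 of 117 genes were tested by name, none passed as higher in FP and 1, HOXC13, passed as lower on its brightest probe set, while LHX9 and MEIS2 passed only on a dimmer one. Of all 7433 genes with a platform name 16 passed (0.215%). In the fit of 36 group means 3 of the 57 passed, beside 70 of the 7433 (0.942%). Lower in FP there were HOXC13 and TBX5 (-0.58, adjusted p = 0.002, limma). On the 15 arrays TBX5 differed by -0.17 in AS and by -1.0 in DL. BARX1 was higher in FP (0.99, adjusted p = 0.0019), with a mean over the 15 arrays of only 0.87 above the background controls. The median of the list was -0.04, against -0.018 over all these genes.

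RNAs that code for no protein were also among the leading differences. LOC106505993, annotated in RefSeq (Sscrofa11.1) as a long non-coding RNA on chromosome 14 with the muscarinic receptor gene CHRM3 among its annotated neighbours, had the most negative difference of the 24 genes. It ranged from 3.38 to 4.03 (median 3.84) in FP and from 4.77 to 6.15 (median 5.48) in FS, without overlap. The FP arrays were within 0.31 of the background controls on average and the FS arrays 2.10 above them. The difference was -1.82 (standard error 0.11, adjusted p = 1.3e-06, limma), or 3.54-fold. MEG3, the imprinted non-coding RNA expressed from the maternal chromosome, was higher in FP. It ranged from 5.87 to 7.02 (median 6.50) in FP and from 4.44 to 5.72 (median 5.45) in FS, a difference of 1.19 (standard error 0.14, adjusted p = 0.00069). A dimmer MEG3 probe set gave 0.13 (adjusted p = 0.8). DIO3, the deiodinase gene of the same imprinted region and named here after its values were seen, had differences of 1.06 (adjusted p = 0.049) and 1.20 (adjusted p = 0.021) on its probe sets. Of the 16 imprinted genes tested by name, MEG3 alone passed, beside 0.215% of all genes tested by name. In sign 7 of the 16 were positive and 9 negative, with a median of -0.01. Both DIO3 probe sets passed as well in the fit of 36 group means, at 1.16 (adjusted p = 3.6e-07) and 1.32 (adjusted p = 2.2e-07). The imprinted IGF2 went the other way or lay near 0, with -1.04 to -0.01 on its tested probe sets, none passing. In the fit of 36 group means 1 of these passed, at -1.01 (adjusted p = 0.0084).

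Several of the 24 genes code for secreted and matrix proteins. None of 66 tested genes of the list of collagens and matrix passed, 30 being positive and 36 negative, with a median of -0.03. That list did not hold COL11A1, which was in the list of cartilage and bone lineage. There it was the 1 of 21 tested genes that passed, beside 0.215% of all genes tested by name. COL11A1, a fibrillar collagen of cartilage, ranged from 5.47 to 6.23 (median 5.63) in FP and from 4.66 to 5.14 (median 4.85) in FS, without overlap, a difference of 0.82 (standard error 0.12, adjusted p = 0.0042, limma). CEMIP, which degrades hyaluronan, was at 6.42 to 7.69 (median 7.35) in FP and 5.66 to 6.86 (median 6.32) in FS, a difference of 0.99 (standard error 0.13, adjusted p = 0.0023). SMOC1, a calcium-binding matrix protein that antagonizes BMP signals, was at 7.48 to 8.27 (median 8.00) in FP and 6.79 to 7.58 (median 7.31) in FS, a difference of 0.64 (standard error 0.10, adjusted p = 0.0071). These 3 genes were thus higher in FP, with some overlap for CEMIP and SMOC1. NPTX1, a secreted pentraxin known from synapses, spread more widely, with 5.43 to 7.68 (median 6.54) in FP and 4.27 to 6.26 (median 4.67) in FS. Its difference was 1.67 (standard error 0.18, adjusted p = 0.0004) and 0.82 (adjusted p = 0.044) on a slightly brighter probe set. Lower in FP were ANGPTL1, an angiopoietin-like secreted protein, and C4A, a complement component. ANGPTL1 lay at 2.96 to 3.83 in FP, where its mean did not rise above the background controls, and at 3.87 to 4.62 in FS (difference -0.93, standard error 0.15, adjusted p = 0.0091). C4A lay at 5.42 to 6.52 (median 5.71) in FP and 6.17 to 7.47 (median 6.74) in FS (difference -1.06, standard error 0.17, adjusted p = 0.0095). In humans C4A has a near-identical copy, and whether its probes tell such copies apart was not tested.

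Genes of the cytoskeleton, of protein stability and of signalling completed the list. DMD, which codes for dystrophin, was higher in FP by 1.40 (standard error 0.16, adjusted p = 0.00045, limma) on the brightest of its 7 tested probe sets. This probe set lay at 4.74 to 6.07 (median 5.47) in FP and 3.50 to 4.42 (median 4.04) in FS, and the other DMD probe sets differed by 0.42 to 0.78, none passing. The FS mean of the passing probe set was only 0.62 above the background controls, against 1.98 in FP. The other DMD probe sets had means of 2.28 to 4.02 over the 15 arrays, where the background controls lay at 3.23 to 3.67. MYO1D, an unconventional myosin, was at 5.67 to 8.06 (median 7.54) in FP and 4.67 to 6.54 (median 5.78) in FS. The AS arrays were the low ones among the FP arrays of MYO1D, and the difference of 1.34 (standard error 0.20, adjusted p = 0.0044) passed in 2 of the 8 fits without a culture line. CRYAB, a small heat shock protein, behaved alike, with 5.32 to 7.24 (median 7.01) in FP and 4.15 to 5.89 (median 5.28) in FS, the 3 AS arrays of FP within the range of FS or close to it. Its difference was 1.16 (standard error 0.19, adjusted p = 0.0091), and 0.41 (adjusted p = 0.47) on a dimmer probe set. DMD, CRYAB and CA3 are also known from muscle. Of 10 skeletal muscle markers on the array, MYOD1, MYF5, PAX7, MYH1 and MYH2 were within 1 of the background controls. The mean level of the list was 4.01 to 4.35 in FP and 3.85 to 4.26 in FS. None of 5 tested markers passed, beside 0.215% of all genes tested by name. Of these 5, 4 were positive, with a median of 0.32. The skeletal actin ACTA1 had means of 6.27 in FP and 5.71 in FS (difference 0.56, adjusted p = 0.18), and the creatine kinase CKM differed by 0.26 (adjusted p = 0.64).

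Also lower in FP were GNA14, S1PR1, MID1 and ZNF385D. GNA14, an alpha subunit of the Gq class of G proteins, was at 5.38 to 7.81 (median 6.91) in FP and 6.56 to 8.46 (median 7.67) in FS, and differed by -0.97 (standard error 0.14, adjusted p = 0.0043, limma) and by -0.93 (adjusted p = 0.0012) on its 2 probe sets. S1PR1, a receptor of sphingosine 1-phosphate, was at 3.13 to 4.07 (median 3.95) in FP and 3.74 to 4.68 (median 4.39) in FS. Its difference of -0.60 (standard error 0.09, adjusted p = 0.0091) was the smallest of those that passed, and both tissues were within 1 of the background controls. S1PR1 is a gene of endothelial cells among others, and of 12 endothelial markers 8 were within 1 of the background controls, PECAM1, VWF and KDR among them. Of 5 tested endothelial markers none passed, beside 0.215% of all genes tested by name. Positive were 4 of the 5, with a median of 0.19. CLDN5, a tight junction protein, had means of 6.05 in FP and 5.63 in FS (difference 0.49, adjusted p = 0.1), and the transcription factor ERG differed by 0.65 (adjusted p = 0.14). MID1, a ubiquitin ligase that binds microtubules, was at 5.89 to 7.16 in FP and 6.23 to 7.83 in FS and differed by -0.66 (standard error 0.11, adjusted p = 0.0091). The other 5 MID1 probe sets gave -0.80 to -0.42 without passing. ZNF385D, a zinc finger protein, was at 5.05 to 5.67 in FP and 5.71 to 6.53 in FS, without overlap (difference -0.85, standard error 0.13, adjusted p = 0.0049). MID1, S1PR1 and COL11A1 passed in none of the 8 fits without a culture line.

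The 0.01 threshold cut through a run of similar values. The largest adjusted p that passed was 0.0095 and the next above it was 0.01, that of PIK3R1, a regulatory subunit of phosphoinositide 3-kinase, at -0.75 (standard error 0.12). Also just outside were CAVIN2, a protein of caveolae abundant in fat cells, at -0.77 (adjusted p = 0.011, limma), and SPON1, a secreted matrix protein, at -2.10 (adjusted p = 0.013). SPON1 had the largest difference of any gene in the list of collagens and matrix, with 5.49 to 8.22 in FP and 7.95 to 9.74 in FS, but it differed by -1.01 in AS and by -3.03 in DL. PAX1, a paired box factor, was at 0.71 (adjusted p = 0.013). At an adjusted p under 0.05, 84 probe sets passed (0.458%), 39 higher (0.213%) and 45 lower in FP (0.245%).

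Whether both pairs of pools differed alike was asked by taking FP against FS within each breed. The 24 genes had been chosen for a shared sign in every pair of breed and day, so their signs are not read here. Within AS alone 6 probe sets passed (0.0327%) and within DL alone 38 (0.207%), from 7 and 8 arrays. PCK1 differed by 1.97 (standard error 0.22, adjusted p = 0.0012, limma) in AS and by 1.86 (standard error 0.20, adjusted p = 0.0012) in DL, and LOC106505993 by -1.53 (standard error 0.14, adjusted p = 0.00027) and -2.07 (standard error 0.13). Of the 24 genes, 3 passed in AS, namely PCK1, DMD and LOC106505993, and 9 in DL. DMD was the larger in AS, 1.79 against 1.06, and CRYAB the larger in DL, 1.48 against 0.79. MYO1D was at 0.94 in AS and 1.67 in DL. No probe set passed the test of the difference between the breeds (0.0%), and 782 (4.27%) had an unadjusted p under 0.05. By that test the nearest named genes were the homeobox factor DRGX (-0.81 in AS, 0.57 in DL, adjusted p = 0.12), IGFBP3 (0.05 and -1.32, adjusted p = 0.26), TGFB3 (0.08 and 1.33, adjusted p = 0.26), HOXD11 (adjusted p = 0.26) and the smooth muscle actin ACTG2 (0.19 and 1.72, adjusted p = 0.29). Across all tested probe sets the AS and DL differences correlated at r = 0.235 and had the same sign in 56.97%, a description over probe sets that are not independent. The DL count fell to 1 without DL FP replicate 1, DL FP replicate 2 or DL FS replicate 2 and to 13 without DL FS replicate 1, and the AS count fell to 0 without AS FP replicate 1 and to 2 without AS FS replicate 2.

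**Figure D2:**
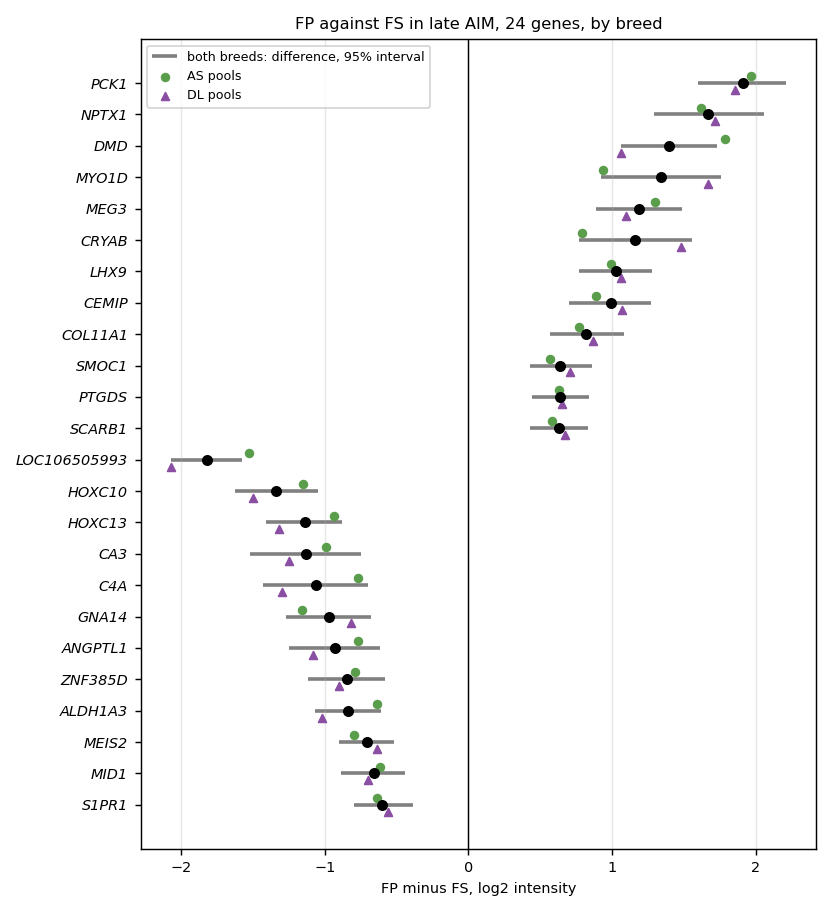
Difference of FP minus FS in late AIM for the 24 leading genes, in log2 intensity. Black points are the difference over both breeds with its 95% interval in grey, green circles the AS pools and purple triangles the DL pools, and the points run from 1.97 for PCK1 in AS to -2.07 for LOC106505993 in DL. A shared side of 0 was required of these genes.

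On single days fewer probe sets passed, 3 on D7 (0.0164%) and 5 on D14 (0.0273%), the latter with 4 higher (0.0218%) and 1 lower in FP (0.00545%), from 7 and 8 arrays. With the replicate number as a block the D14 count was 3. PCK1 differed by 2.04 on D7 and 1.79 on D14, LOC106505993 by -1.94 and -1.73, and HOXC10 by -1.31 and -1.36. CA3 was at -0.90 and -1.33, and ANGPTL1 at -1.24 and -0.68. No probe set passed the test of D14 against D7 (0.0%; limma), and 978 (5.33%) had an unadjusted p under 0.05. Its nearest named genes were the mannosyltransferase ALG9 (0.87 on D7, -0.39 on D14, adjusted p = 0.54) and, each at an adjusted p of 0.92, the fatty acid elongases ELOVL5 and ELOVL7, the channel protein ANO6 and the neurofilament NEFM. The D14 count fell to between 0 and 3 when any 1 culture line was left out, and the D7 count was 1 without DL FP replicate 2 or DL FS replicate 1 and 5 without AS FS replicate 1.

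Which of the late differences were already present before or early in differentiation, or without it, was read from other arrays of the same pools: 7 arrays on D0 in CCM, 8 each on D1 and D4 in AIM, and 15 late arrays in CCM (D7 and D14). FP and FS differed in 75 probe sets on D0 (0.409%), 39 higher (0.213%) and 36 lower in FP (0.196%), 56 on D1 (0.305%), 134 on D4 (0.731%) and 218 in late CCM (1.19%). Of the 31 late probe sets, 8 passed in the same direction on D0 (25.8% of the late and 10.7% of the D0 list), 11 on D1 (35.5% and 19.6%), 20 on D4 (64.5% and 14.9%) and 18 in late CCM (58.1% and 8.26%). None passed in the opposite direction. Their signs matched in 29, 28, 31 and 28 of the 31, where those of all tested probe sets matched in 51.7%, 55.4%, 59.1% and 52.6%. The 31 came from the fit of 15 arrays and the other lists from that of 36 group means. Within the latter fit, of the 178 late probe sets 16 passed in the same direction on D0 (8.99% of the late and 21.3% of the D0 list), 21 on D1 (11.8% and 37.5%), 49 on D4 (27.5% and 36.6%) and 46 in late CCM (25.8% and 21.1%), where 3 more passed in the opposite direction. Of the 178, 105 passed in none of these other cultures (59.0%), as did 5 of the 31 (16.1%). The signs of the 178 matched in 140 on D0, 133 on D1, 160 on D4 and 144 in late CCM. With 7 or 8 arrays on D0, D1 and D4 against 15 late ones, not passing there does not show that a difference was absent. The D0 count was 25 to 49 without AS FP replicate 1, AS FS replicate 2, DL FP replicate 1, DL FP replicate 2 or DL FS replicate 2. The D1 count was 20 to 36 without any line other than AS FP replicate 2 or AS FS replicate 1, and the D4 count 29 to 73 without any other than AS FS replicate 1. The late CCM count was 95 to 135 without the same lines as on D0.

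**Figure D3:**
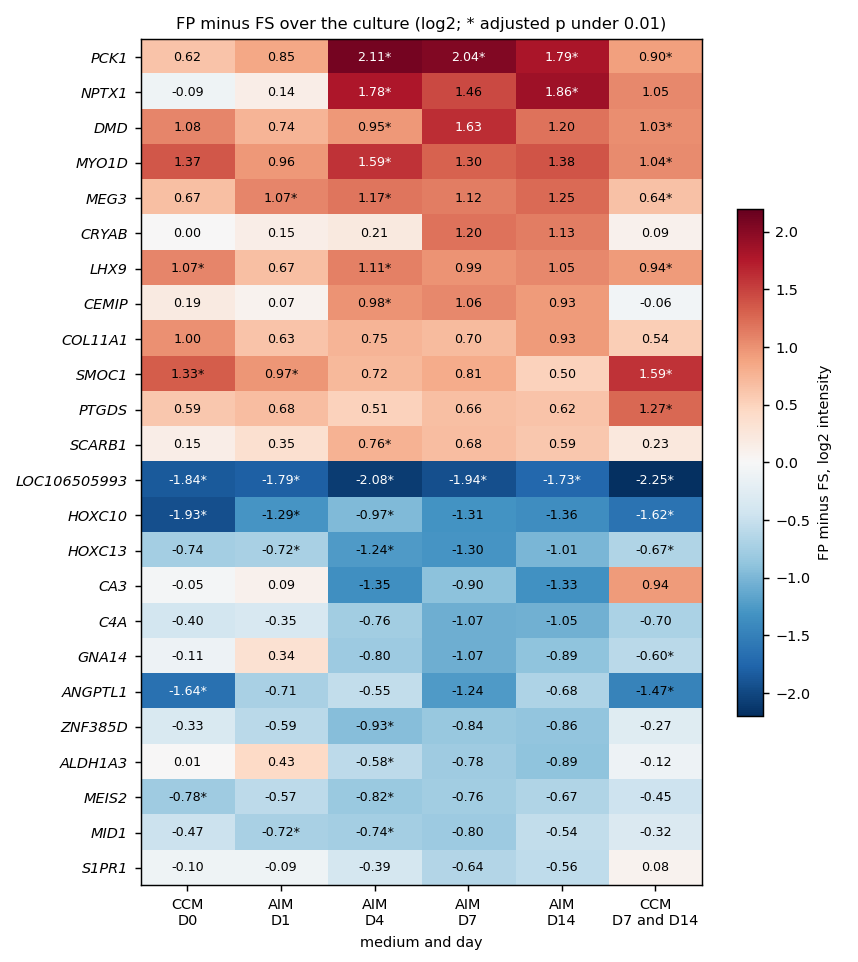
FP minus FS in log2 intensity for the 24 leading genes on D0 in CCM, on D1, D4, D7 and D14 in AIM and in late CCM (D7 and D14 together). Red is higher in FP, blue is higher in FS, and a star marks an adjusted p under 0.01. LOC106505993 is blue in all columns, from -1.73 to -2.25, while CRYAB is 0.00 on D0 and 1.20 on D7.

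Passing in every one of these cultures were 4 probe sets, which named HOXC10, LOC106505993 and MYO1D. LOC106505993 differed by -1.84 on D0, -1.79 on D1, -2.08 on D4 and -2.25 in late CCM, close to its late AIM value of -1.82. HOXC10 differed by -1.93 (adjusted p = 9.1e-08, limma) on D0, -1.29 on D1, -0.97 on D4 and -1.62 in late CCM. Its FS mean was 6.13 on D0, 5.58 on D14 in AIM and 6.20 on D14 in CCM, and its FP mean was 4.20, 4.22 and 4.68. MYO1D, on the probe set that passed throughout, differed by 1.17, 0.85, 0.94 and 0.91, and by 1.19 in late AIM. The remaining probe set, SNOWBALL_038936_st, carried no gene name and its FP and FS means in late AIM did not rise above the background controls. In the fit of all 36 group means PAX1 (0.76 in late AIM, 0.96 on D0) and APBB1IP, an adaptor protein of blood cells (-0.69 and -1.14), also passed in all 5 cultures. Others were present from the start but did not pass everywhere: LHX9 (1.07 on D0, adjusted p = 0.0013), SMOC1 (1.33, adjusted p = 7.3e-05), ANGPTL1 (-1.64, adjusted p = 3.2e-06) and MEIS2 (-0.78, adjusted p = 0.0088) passed on D0. DMD was at 1.08 (adjusted p = 0.011), COL11A1 at 1.00 (adjusted p = 0.11) and HOXC13 at -0.74 (adjusted p = 0.015) on that day.

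In 8 of the 24 genes the D0 difference was below 0.25 in size. PCK1 was not among these 8, with 0.62 (adjusted p = 0.46) on D0, but it was then close to background, with a mean of 4.06 in FP and 3.44 in FS, and on D4 in AIM it was at 9.49 and 7.38, a difference of 2.11 (adjusted p = 1.6e-07, limma). NPTX1 differed by -0.09 on D0 and 0.14 on D1 and by 1.78 (adjusted p = 0.0072) on D4. CEMIP differed by 0.19 on D0 and 0.98 (adjusted p = 0.0032) on D4, and SCARB1 by 0.15 and 0.76 (adjusted p = 8.9e-05). These genes had their late difference by D4. CRYAB differed by 0.00 on D0 and 0.21 on D4 and by 1.20 on D7. The CRYAB mean in AIM was 5.60 on D4 and 6.36 on D14 in FP, and 5.40 and 5.23 in FS. CA3 was at or below the background controls on D0 and D1, with means of 2.58 to 2.85, and was at 5.71 in FP and 7.05 in FS on D4 and at 8.78 and 10.11 on D14. ALDH1A3 differed by 0.01 on D0 and -0.58 (adjusted p = 0.0069) on D4, and GNA14 by -0.11 and -0.80 (adjusted p = 0.012). C4A was at -0.40 on D0 and -0.76 on D4 without passing at either time.

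Late AIM was also set against D0 directly, a test added after the data had been seen. The FP minus FS difference changed in 32 probe sets (0.175%), 9 towards FP (0.0491%) and 23 towards FS (0.125%), and 2 of these were among the 31. They were PCK1, on 1 probe set by 2.11 (standard error 0.29, adjusted p = 5.7e-05, limma) and on the other by 1.33 (adjusted p = 0.031), and ALDH1A3, by -0.83 (adjusted p = 0.0092). Of the 32, 19 probe sets of 10 genes had passed on D0, 8 of them of GPM6B, and none of these 19 passed in late AIM in either fit. A further 10, of 7 genes, passed in late AIM in the fit of 36 group means and not on D0. Among them were CXCL12, which changed by -2.05 (adjusted p = 6.6e-05), and IGFBP5, which changed by 1.56 (adjusted p = 0.00027). GPM6B, a membrane glycoprotein of neural cells, was higher in FP on D0 by 1.38 (adjusted p = 2.9e-07), with means of 7.49 and 6.11, and differed by -0.17 (adjusted p = 0.62) in late AIM, where the means of both tissues were 8.60 or above. All 8 tested probe sets of GPM6B passed on D0, at 0.89 to 1.78, and none late, at -0.29 to -0.15. CD34, a surface protein of progenitor cells, was lower in FP on D0, 4.92 against 6.53 (difference -1.61, adjusted p = 1.3e-06). In late AIM the means of both tissues lay between 4.05 and 4.15 with a difference of 0.00. The single arrays ran from 3.67 to 4.42 in FP and from 3.75 to 4.50 in FS. This was within 1 of the background controls on average, where a difference between the tissues could hardly be seen. The 75 probe sets of D0 had a median size of 1.20 there and of 0.27 in the same direction in late AIM, 59 of them with the same sign. Since they were chosen by their D0 values, the first of these medians is inflated.

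Medium mattered for some of the late differences. FP minus FS in AIM differed from FP minus FS in CCM over D7 and D14 in 51 probe sets (0.278%), 22 towards FP (0.12%) and 29 towards FS (0.158%). In 42 of them the difference had opposite signs in the 2 media. The AIM values given here are those of the fit of 36 group means. The smallest p belonged to CXCL12, a chemokine that retains blood stem cells, which differed by -1.20 in AIM and by 0.79 in CCM, a change of -1.99 (standard error 0.23, adjusted p = 3.2e-06, limma). On D7 its means were 6.64 in FP and 7.78 in FS in AIM, and 7.35 and 6.32 in CCM. The insulin-like growth factor binding protein IGFBP5 was at 0.89 in AIM and -0.42 in CCM (change 1.31, standard error 0.18, adjusted p = 6.6e-05). The flavin monooxygenase FMO1 was at -0.82 and 0.84 (change -1.66, standard error 0.23, adjusted p = 7.5e-05), and FAM46C, a poly(A) polymerase, at -0.66 and 0.67 (change -1.33, standard error 0.18, adjusted p = 7.5e-05). PCK1 changed by 1.66 (standard error 0.22, adjusted p = 6.6e-05) on its dimmer probe set and by 1.05 (adjusted p = 0.018) on the other. All 5 genes passed in late AIM in this fit. In the fit of 15 arrays PCK1 alone did, while CXCL12 was at -1.31 (adjusted p = 0.019), IGFBP5 at 0.95 (adjusted p = 0.069), FMO1 at -0.90 (adjusted p = 0.065) and FAM46C at -0.60 (adjusted p = 0.11). Within the breeds, in late AIM, CXCL12 differed by -0.51 in AS and by -1.98 in DL, and IGFBP5 by 0.38 and 1.44. FMO1 (-0.90 and -0.89) and FAM46C (-0.59 and -0.60) were alike in both. The change between the media was 1.24, 1.13 and 0.47 on the other IGFBP5 probe sets, the last without passing (adjusted p = 0.41, limma). Whether the changes with the medium differed between the breeds was not tested.

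**Figure D4:**
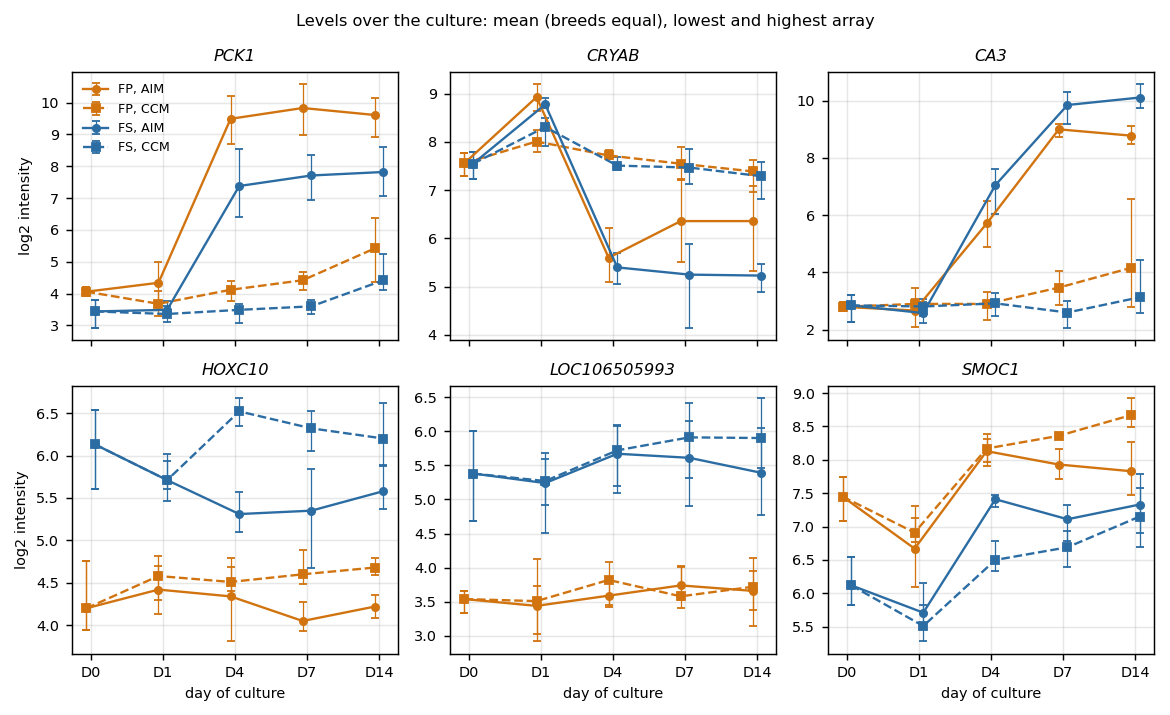
Log2 intensity of 6 genes over the culture, as means with both breeds weighted equally; bars run from the lowest to the highest array. Orange is FP and blue FS, solid lines with circles are AIM and dashed lines with squares CCM. The mean of PCK1 in AIM is 9.61 in FP and 7.82 in FS on D14, and the means of HOXC10 stay at 4.68 or below in FP and at 5.31 or above in FS.

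Of the 24 leading genes 5 more depended on the medium. CRYAB was at 6.36 in FP and 5.23 in FS on D14 in AIM, while in CCM it was at 7.39 and 7.29, and its FP minus FS difference changed by 1.03 between the media (adjusted p = 0.0018, limma). CEMIP changed by 0.99 (adjusted p = 0.0076), from -0.06 in CCM. ALDH1A3 changed by -0.70 (adjusted p = 0.0029), from -0.12 in CCM. CA3 changed by -2.04 (adjusted p = 0.0024), but in CCM it was near the background controls, with means from 2.60 to 4.16. For SMOC1 the difference was smaller in AIM, with a change of -0.94 (adjusted p = 0.006) from 1.59 in CCM. Fat cell genes were not at 0 in late CCM and moved with the tissue there. The mean of the 10 adipocyte markers was 5.70 to 7.05 on D14 in CCM in FP and 5.24 to 6.20 in FS, and PPARG differed by 1.21 (adjusted p = 1.4e-05) in CCM and by -0.21 (adjusted p = 0.61) in late AIM. The part of this in the changes with the medium was not tested. The count of 51 fell to 29 without AS FP replicate 1, 20 without AS FS replicate 2, 6 without DL FP replicate 1, 14 without DL FP replicate 2, 33 without DL FS replicate 1 and 16 without DL FS replicate 2.

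Of 36 fat cell genes on the list 27 were tested by name, and 1, PCK1, passed, beside 16 of all 7433 genes tested by name (0.215%). The median of the 27 was -0.04, 11 positive and 16 negative. It was 0.03 in AS and -0.10 in DL, and ran from -0.11 to 0.09 when 1 culture line was left out. In the fit of 36 group means the same genes had a median of 0.19 on D0, 0.44 on D4 in AIM and 0.25 in late CCM. Over all genes tested by name these medians were 0.04, -0.01 and -0.01. ADIPOQ had a mean of 13.14 ± 0.12 (SD, n = 7) in FP and 13.19 ± 0.10 (SD, n = 8) in FS, a difference of -0.04 with a 95% interval of -0.22 to 0.13. FABP4 differed by 0.05 (-0.20 to 0.31), the lipid droplet protein PLIN1 by -0.04 (-0.36 to 0.29), the fatty acid transporter CD36 by 0.01 (-0.28 to 0.31) and PPARG by -0.21 (-0.49 to 0.06). For 17 of the 26 genes that did not pass the interval lay within 0.5 of 0, and for 25 within 1. The widest departures were those of PLIN4, another droplet protein, at 0.56 (0.12 to 1.01, adjusted p = 0.32, limma; 0.64 and adjusted p = 0.0023 in the fit of 36 group means), and of the lysosomal lipase LIPA at -0.47 (-0.77 to -0.17, adjusted p = 0.19).

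**Figure D5:**
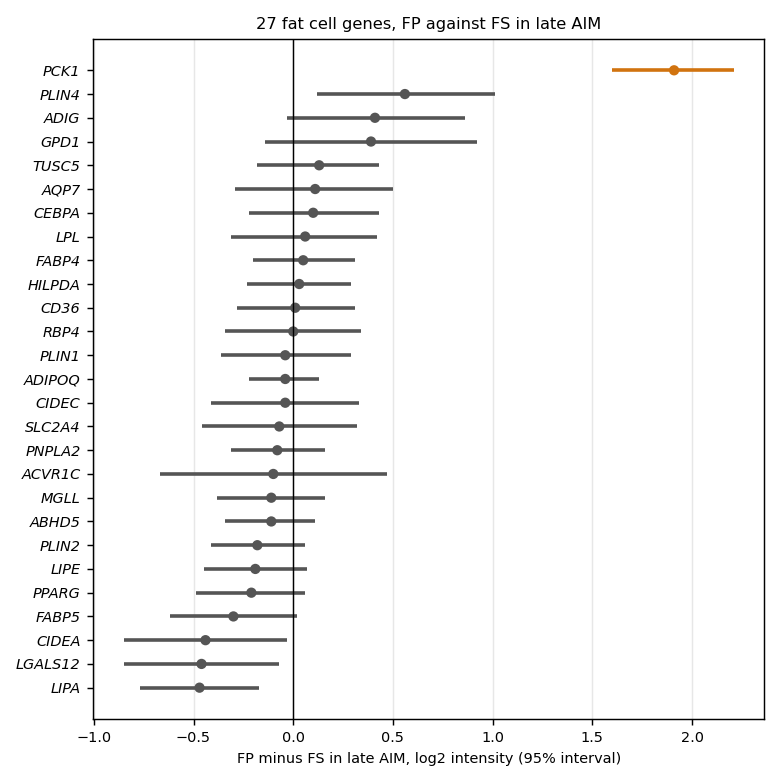
FP minus FS in late AIM for the 27 tested fat cell genes, in log2 intensity with 95% intervals. PCK1, in orange, is at 1.91, and the other genes, in grey, lie between -0.47 and 0.56.

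Other pathways of lipid metabolism were named by lists of known members. None of 24 genes of fatty acid synthesis and desaturation, 28 of triacylglycerol and phospholipid synthesis, 16 of cholesterol synthesis and uptake, 31 of fatty acid beta-oxidation or 16 of heat production and browning passed. Of all 7433 genes tested by name only 16 passed (0.215%), so a lack of passing genes in lists of this size says little about them. Of the beta-oxidation genes 27 were negative, with a median of -0.12, and of the cholesterol genes 15 were negative, with a median of -0.16. Over all 7433 genes with a platform name 4080 were negative, with a median of -0.018. In the beta-oxidation list ACAA2, the last enzyme of the cycle, was at -0.54 (adjusted p = 0.12, limma; -0.50 and adjusted p = 0.0015 in the fit of 36 group means) and CPT1A, which admits fatty acids to the mitochondrion, at -0.36 (adjusted p = 0.21). The medians came mainly from the DL pools, at -0.19 for beta-oxidation and -0.25 for cholesterol against -0.05 and -0.07 in AS, and when 1 culture line was left out they ran from -0.18 to -0.09 and from -0.28 to -0.08.

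Genes of the contractile cytoskeleton leaned the other way. Of 30 tested, 28 were positive and none passed, with a median of 0.29. The tropomyosin TPM2 was at 0.78 (standard error 0.18, adjusted p = 0.079, limma) and the actin nucleator LMOD1 at 0.47 (standard error 0.11, adjusted p = 0.085). This too was seen in the DL pools, with a median of 0.49 and 29 positive, against 0.04 and 16 positive in AS. The median ran from 0.20 without DL FS replicate 2 to 0.42 without AS FP replicate 1. Of 42 axon guidance genes none passed, and SEMA3F, a repulsive guidance cue, was the nearest at -0.50 (adjusted p = 0.045). Of 39 Wnt genes none passed, with the antagonist WIF1 at 1.09 (adjusted p = 0.018), and of 46 growth factor and receptor genes none passed, with FGF2 at 0.55 (adjusted p = 0.033). One of 20 complement genes, C4A, passed. These counts are those of the fit of 15 arrays, beside 0.215% of all genes tested by name. In the fit of 36 group means 70 of the 7433 genes passed (0.942%). There 1 of the axon guidance genes passed, SEMA3F at -0.48 (adjusted p = 0.00088), 1 of the Wnt genes, WIF1 at 1.13 (adjusted p = 0.00015), and 5 of the growth factor and receptor genes, 3 higher and 2 lower in FP, with FGF2 at 0.57 (adjusted p = 0.0045) and IGFBP5 at 0.89 (adjusted p = 2.5e-05). Of the complement genes 2 passed there, and of the list of collagens and matrix 2, POSTN and SPON1. Genes of mitosis and DNA replication (70 tested), interferon-induced genes (31), progenitor surface genes (24), matrix proteases and their inhibitors (40), synovial lining and lubrication genes (16) and subunits of the respiratory chain (12) held none that passed in the fit of 15 arrays.

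In the fit of 15 arrays none of the tested markers of endothelial cells, macrophages, lymphocytes, pericytes, chondrocytes, Schwann cells or synovial fibroblasts passed, where 0.169% of all tested probe sets did. In the fit of 36 group means the pericyte marker NDUFA4L2 passed as higher in FP (0.80, adjusted p = 0.0051), and CXCL12 of the sublining fibroblast list as lower (-1.20, adjusted p = 9.7e-06). CD86, a surface protein of antigen-presenting cells and in no marker list, passed there on 3 probe sets, at -1.06, -0.89 and -0.50. CD163, PTPRC and MRC1 of macrophages and CD3D, CD3E and MS4A1 of lymphocytes were within 1 of the background controls. The mean of the sublining fibroblast list, which holds CXCL12, was 6.55 to 7.04 in FP and 6.75 to 7.69 in FS. That of the macrophage list was 4.17 to 4.61 and 4.06 to 4.62. Changes of 1 and below on the log2 scale could be missed at this number of arrays. Of simulated differences of 0.5, 1 and 2 in 15 such arrays of 18335 probe sets, 17.9%, 76.1% and 98.5% were found. That simulation gave 129 calls against 31 in the data, so its cutoff on the unadjusted p was looser and these shares are too high here. In the data 59 probe sets were over 1 in size, and 18 of them passed.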

How the data were processed

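Per the study's methods, total RNA of each culture was turned into amplified, labelled cDNA and hybridized to 1 porcine Snowball array (scanner software GCOS 1.1.1). The authors used RMA in Expression Console for background correction, normalization and summarization. They deposited the log2 intensity values of 47845 probe sets, which were used without rescaling. The aligner or genome build behind the probe sets is not given in the sources used here. The authors' own test results were not used.

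Probe sets were named from the platform annotation (1 gene for 26426), with 446 symbols updated through RefSeq and 193 conflicting names dropped. A further 1028 were named from the gene names in the study's tables, and these served for single genes and not for list counts. Among the leading genes, HOXC10, CEMIP, GNA14, LOC106505993 and the MYO1D probe set with a difference of 1.34 were named in this way only. Tissue, breed and day were fitted to the 15 arrays by limma (version 3.58.1, R version 4.3.3) with eBayes. The 8 culture lines, each a replicate of a breed and tissue, were a random block, with a correlation of 0.0278 estimated by duplicateCorrelation (statmod, version 1.5.0). The Benjamini-Hochberg adjustment ran over all tested probe sets, with the threshold of the study, 0.01. Breed and day differences came from the same arrays, and those of D0, D1, D4, late CCM and the media from 1 fit of the 36 group means on 68 arrays, without 4 arrays whose labels conflict with the study's tables. The filter used all 72 arrays. No detection p-values entered. The labels do not say what a replicate number shares between tissues. Replicate differences of FP and FS of the same breed and day correlated at 0.126 to 0.319 in all 3 such pairs of groups. Groups of different breeds on the same day reached 0.15, so a pairing particular to a breed was not shown. By these data the numbers may be paired, and counts from fits with the number as a block are given. The differences and adjusted p of single genes come from the fit without this pairing.

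The genes named are, per direction, the 12 with the largest passing difference whose sign was shared by every pair of breed and day, given by the passing probe set with the highest mean. Each list contributed up to 4 passing members or, failing any, its 2 members of smallest p, and the 5 genes with the smallest p of each difference between breeds, days or media were eligible too. List members are given by the brightest tested probe set. The genes, lists and comparisons were chosen with earlier results of these data known. Tested on simulated data in which 200 probe sets were changed, 0.775% of the calls were false; pools did not differ in that simulation. Python (version 3.11.15) and pandas (version 2.3.3) made the tables. Alternatives varied the filter, scaling, blocks, model terms, arrays and threshold.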

Additional observations from a re-analysis of the deposited data

Results flagged for a closer look

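For MEG3 and HOXC13, 1 array each lay far from the rest of their tissue, among 48 groups of arrays looked at, of which chance alone would set apart about 1 in 20. MEG3 was 4.44 on DL FS D14 replicate 2, against 5.13 on the next lowest FS array. HOXC13 was 4.46 on AS FP D7 replicate 1, against 5.09 on the next lowest FP array.

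For 5 of the 24 leading genes the FP minus FS difference itself differed between late AIM and late CCM in limma. It was larger in AIM by 1.03 for CRYAB (adjusted p = 0.0018) and by 0.99 for CEMIP (adjusted p = 0.0076), and it changed by -0.94 for SMOC1 (adjusted p = 0.006), by -2.04 for CA3 (adjusted p = 0.0024) and by -0.70 for ALDH1A3 (adjusted p = 0.0029). Between D0 and late AIM, ALDH1A3 changed by -0.83 (adjusted p = 0.0092).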

How the results depend on the processing

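For FP against FS in late AIM, the count of 31 was 178 in the fit of 36 group means, 217 with the pool as the random block (estimated correlation -0.135), 84 at an adjusted p under 0.05, 8 with the left-out array included under its label and 3 with D7 and D14 averaged per culture line, which leaves 8 values. It was 23 to 46 under 8 other settings, and 11 to 28 without 1 culture line. All 24 genes kept their sign under all alternatives run. They had been chosen for passing with a shared sign in these same arrays, so this was nearly fixed in advance.

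With the replicate block the late count was 31 and the D14 count 3 in place of 5. With the replicate block within breed and day, chosen after seeing the data and run for late AIM, it was 19. The replicate block moved no other count by over 1.5 times.

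Without the filter the DL count was 25 in place of 38, the D14 count 2 and the D4 count 88 in place of 134. With all 72 arrays as labelled, D0 gave 24, D1 10 and D4 18. Without 1 culture line the counts were 0 to 6 (AS), 1 to 40 (DL), 0 to 1 (AS less DL; 1 without AS FP replicate 1), 1 to 5 (D7), 0 to 3 (D14), 25 to 67 (D0), 20 to 55 (D1), 29 to 118 (D4), 95 to 211 (late CCM) and 6 to 60 (media). Quantile normalization turned the split of D0 from 39 higher and 36 lower in FP to 33 and 46, and that of D14 from 4 and 1 to 3 and 2. Cultures of 4 pools, without replicate animals, limit all values.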
